A study of Rattus norvegicus with 30 samples.

Results

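The 9 genes studied here belong to the NRF2 antioxidant response and were followed in the lungs of rats with severe acute pancreatitis: Nfe2l2, Hmox1, Gclc, Gclm, Txnrd1, Srxn1, Slc7a11, Osgin1 and Me1. They were taken by their symbols from the tables of read counts and FPKM (fragments per kilobase of transcript scaled to mapped reads), and these 9 genes were 1 row each among 22914 genes in the count table. NRF2, the protein made from Nfe2l2, is a transcription factor that KEAP1 holds in the cytoplasm and hands over for destruction. When oxidants or electrophiles modify KEAP1, NRF2 accumulates, pairs with a small MAF protein and binds antioxidant response elements near genes that make glutathione, recycle thioredoxin, supply NADPH and break down heme, while BACH1 competes for the same elements. In lung, the pathway is known for protecting epithelium and endothelium against inhaled oxidants and against the oxidants of inflammatory cells, and because NRF2 is controlled mainly as a protein, the level of its mRNA need not follow its activity.

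Each of the 30 libraries was made from polyadenylated RNA of the lung of 1 male Sprague Dawley rat aged 8 weeks, and each of the 10 groups held 3 rats. Lungs were collected at 6 or 24 hours after surgery, which followed 12 hours without food. Sham rats only had the pancreas turned, and Con rats received sterile saline through the biliopancreatic duct. SAP, DEX and Emo rats instead received 5.0% sodium taurocholate by this route, which as a bile salt damages the pancreas. The DEX groups then received the synthetic glucocorticoid dexamethasone intravenously at 10 mg/kg, and the Emo groups received emodin, an anthraquinone from rhubarb, into the stomach. Doses were given 2 and 12 hours after surgery, which leaves 1 dose for the 6-hour rats, and the groups without a drug received the vehicles. The labels state the emodin dose as 10 mg/kg in 1 place and 40 mg/kg in another. No group received a drug without taurocholate, so the action of a drug on these genes in an uninjured lung was not measured.

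Between 16813949 and 34692306 reads per library fell on genes. In the study's mapping summary, every Sham and Con library had a higher share of uniquely mapped reads than any SAP, DEX or Emo library. The part of this difference in the results was not tested. The summed level of 6 alveolar type 2 markers, which make and store surfactant, was 24517 to 46984 FPKM, so every library had the markers of lung tissue. The summed level of 8 neutrophil markers differed widely: it was 13331, 4672 and 17712 FPKM in the 3 SAP-24h lungs, 1856, 410 and 9575 FPKM in Sham-24h and 261 to 1268 FPKM in Con-24h. It was 1625 to 4818 FPKM in DEX-24h and 4750 to 6930 FPKM in Emo-24h. Summed macrophage markers stayed between 278 and 405 FPKM in the 24-hour groups, with all 5 groups overlapping. Summed airway club and ciliated cell markers were higher in SAP-24h (37670 to 47774 FPKM) than in any Sham-24h lung (20682 to 36718 FPKM), but overlapped with Con-24h (37098 to 43377 FPKM). Summed T and B cell markers were 20.3 to 31.6 FPKM in SAP-24h, below Sham-24h (39.9 to 66.2 FPKM) and Con-24h (32.6 to 103 FPKM), and 7.06 to 13.4 FPKM in DEX-24h. Summed alveolar type 1 markers were 1373, 2854 and 2720 FPKM in the SAP-24h lungs, lowest in replicate 1. They were below every Con-24h lung (2883 to 3863 FPKM) and overlapped with Sham-24h (2787 to 3821 FPKM). Summed endothelial markers were 909 to 960 FPKM in SAP-24h. These too were below every Con-24h lung (1115 to 1351 FPKM) and overlapped with Sham-24h (833 to 1076 FPKM). The part of these cell types in the results was not tested. In whole lung, a different number of cells of a type cannot be told apart from a different amount of RNA per cell.

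The sequence that links these genes is the antioxidant response element, whose core is TGACNNNGC, and its variant TGAGNNNGC. Both were searched on both strands in the promoter windows of RefSeq (build GRCr8), which run from 250 bases before a gene's start to 50 bases after it. Windows were found for 8 of the 9 genes, all except Hmox1. TGACNNNGC was present in Gclm, Nfe2l2, Txnrd1 and Me1, and TGAGNNNGC 3 times in Srxn1, while Gclc, Slc7a11 and Osgin1 had neither in this window. Over all 33469 windows, 12.1% held TGACNNNGC, 17.2% held TGAGNNNGC and 27.1% held either. For 4 members, 1 match that begins before the gene start is shown with the bases beside it, 5′ to 3′ on the strand of the gene, because they place the letters the pathway reads beside the genes whose levels follow. Capitals mark the match, which reads as the motif on the opposite strand in Gclm and Txnrd1.
Gclm, chr2:213031923-213032011, plus strand: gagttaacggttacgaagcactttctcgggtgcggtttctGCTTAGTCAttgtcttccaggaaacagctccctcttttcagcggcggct
Txnrd1, chr7:22755934-22756022, minus strand: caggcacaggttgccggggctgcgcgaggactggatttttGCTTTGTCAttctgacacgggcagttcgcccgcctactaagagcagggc
Me1, chr8:96540363-96540451, minus strand: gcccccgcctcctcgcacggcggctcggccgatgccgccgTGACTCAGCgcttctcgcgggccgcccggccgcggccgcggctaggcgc
Srxn1, chr3:161064767-161064815, plus strand: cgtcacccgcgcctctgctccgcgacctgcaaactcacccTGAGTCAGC

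The match began 172 bases before the start in Gclm, 167 in Me1, 78 in 1 of the 2 listed starts of Txnrd1 and 5 in Srxn1, where it runs across the start. The other Srxn1 matches, not shown, began 118 and 17 bases before the start. In Nfe2l2 the letters TGACGCCGC lay 38 bases after the start, in transcribed sequence. The matches of Me1 and of Srxn1 shown here overlap with TGACTCA, the site of AP-1 factors, which was found on either strand in 4.63% of all windows and in no other member. A match is a description of the sequence and no measurement of binding.

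The 9 genes spanned a wide range of levels, compared here per transcript length. Nfe2l2 (ENSRNOG00000001548) averaged 40.7 FPKM over the 30 lungs. Hmox1 (ENSRNOG00000014117), which encodes the inducible heme oxygenase, averaged 40.3 FPKM, and Txnrd1 (ENSRNOG00000009088), the cytosolic thioredoxin reductase, averaged 26.6 FPKM. Osgin1 (ENSRNOG00000014948), a growth inhibitor induced by oxidative stress, averaged 11.7 FPKM. The modifier subunit of glutamate-cysteine ligase, Gclm (ENSRNOG00000013409), averaged 11.5 FPKM, and the catalytic subunit, Gclc (ENSRNOG00000006302), averaged 8.08 FPKM. Together they make the enzyme that limits glutathione synthesis. Me1 (ENSRNOG00000009715), a cytosolic malic enzyme that yields NADPH, averaged 6.37 FPKM. Srxn1 (ENSRNOG00000031167), the sulfiredoxin that repairs overoxidised peroxiredoxins, averaged 0.803 FPKM from 6 to 40 reads per library. Slc7a11 (ENSRNOG00000010210), the cystine importer that feeds glutathione synthesis, averaged 0.0763 FPKM from 1 to 51 reads per library, and its values therefore carry a large counting error. All 9 genes passed the filter on low counts.

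**Figure D1:**
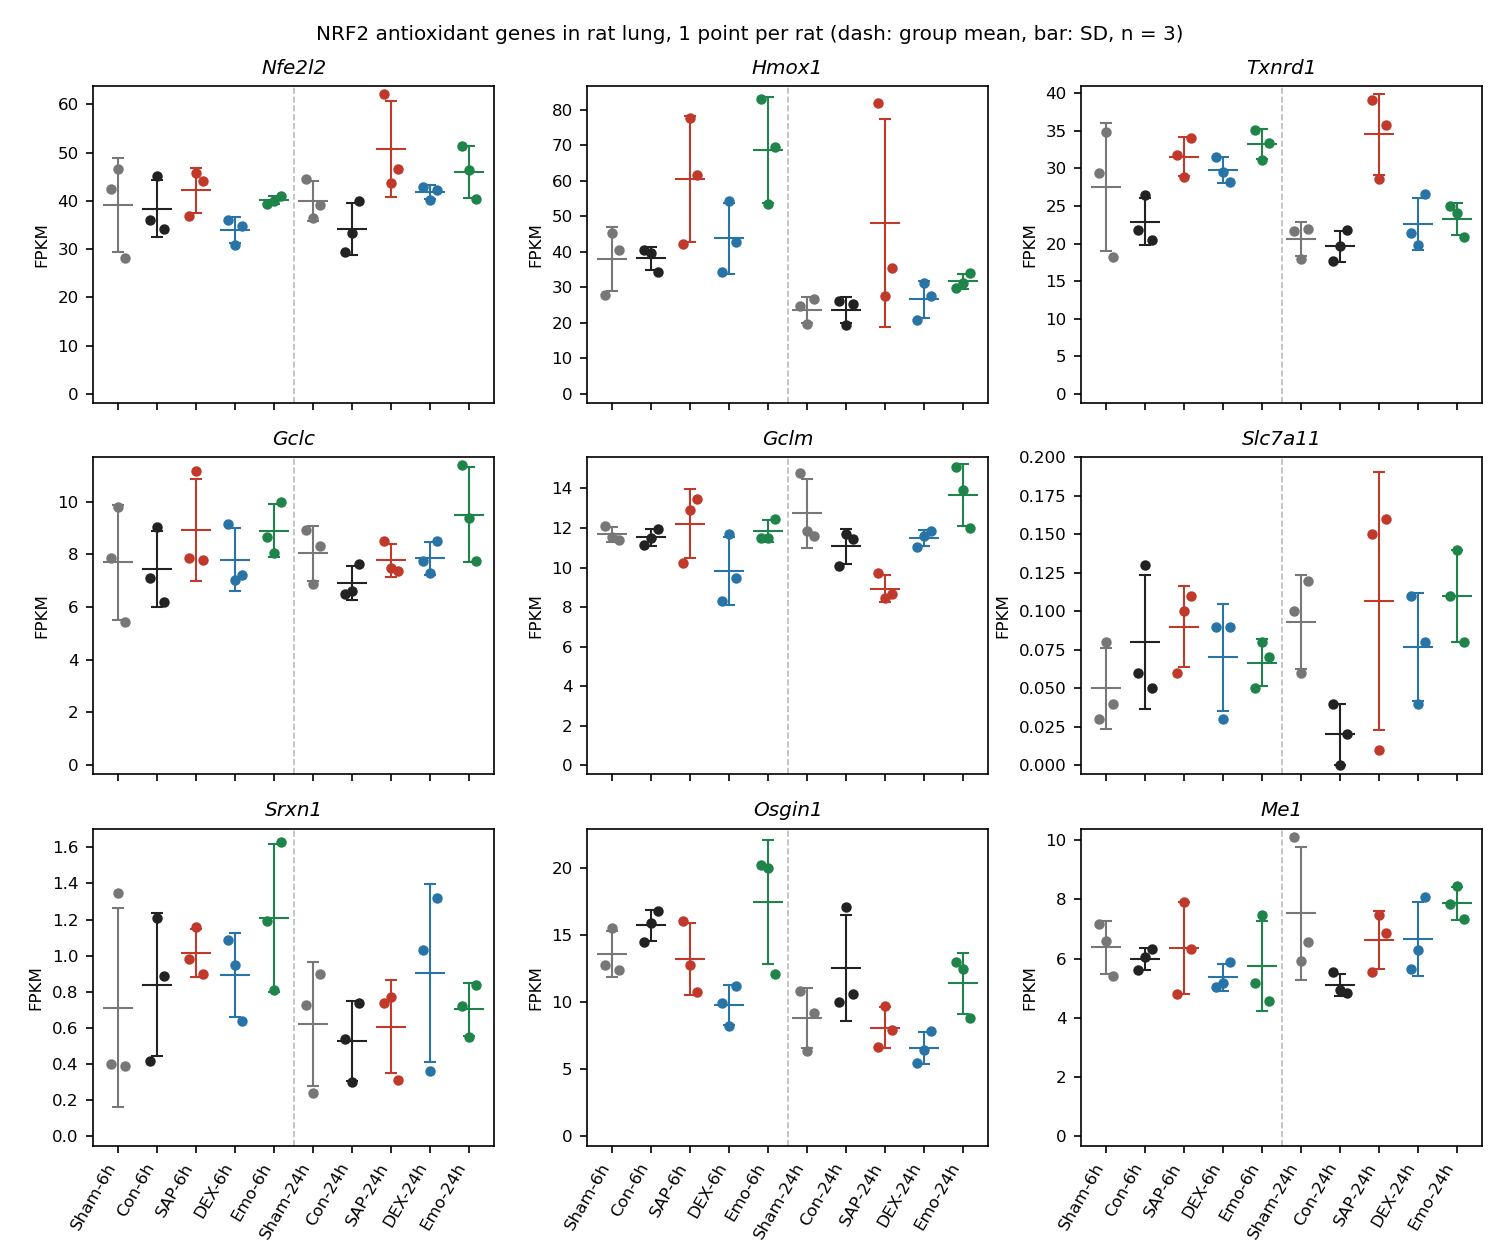
Level of each gene in FPKM (vertical axis, linear, 1 panel per gene) in the 10 groups (horizontal axis, 6-hour groups left of the dashed line), with 1 point per rat, the group mean as a dash and the SD as a bar. Txnrd1 is higher in the 3 SAP-24h lungs (28.65 to 39.09 FPKM) than in any other 24-hour lung, Gclm is lower there (8.44 to 9.72 FPKM), and 1 SAP-24h lung stands far above the others in Hmox1 (81.78 FPKM).

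The order of the groups differed from gene to gene. Nfe2l2 was highest in SAP-24h (50.8 ± 9.92 FPKM, SD, n = 3), followed by Emo-24h (46.1 ± 5.41), SAP-6h (42.3 ± 4.67), DEX-24h (41.8 ± 1.44), Emo-6h (40.2 ± 0.852), Sham-24h (40.03 ± 4.11), Sham-6h (39.1 ± 9.77), Con-6h (38.4 ± 5.86), Con-24h (34.2 ± 5.40) and DEX-6h (33.9 ± 2.71). Hmox1 was highest in Emo-6h (68.6 ± 14.8 FPKM), then SAP-6h (60.5 ± 17.7), SAP-24h (48.2 ± 29.3), DEX-6h (43.8 ± 10.1), Con-6h (38.2 ± 3.32), Sham-6h (37.9 ± 9.01), Emo-24h (31.6 ± 2.18), DEX-24h (26.6 ± 5.22), Sham-24h (23.7 ± 3.67) and Con-24h (23.7 ± 3.67). Txnrd1 was highest in SAP-24h (34.5 ± 5.34 FPKM), then Emo-6h (33.2 ± 1.98), SAP-6h (31.6 ± 2.62), DEX-6h (29.8 ± 1.70), Sham-6h (27.5 ± 8.49), Emo-24h (23.3 ± 2.17), Con-6h (22.9 ± 3.14), DEX-24h (22.6 ± 3.49), Sham-24h (20.5 ± 2.27) and Con-24h (19.7 ± 2.06). SAP-24h thus led for the transcription factor and for Txnrd1, while the 4 groups at the top of the Hmox1 order all received taurocholate and 3 of them were studied at 6 hours. In each of the 9 genes, every group overlapped with the next group in the order.

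Gclm ran the other way and was lowest in SAP-24h (8.94 ± 0.686 FPKM). The groups above it were DEX-6h (9.83 ± 1.70), Con-24h (11.1 ± 0.880), DEX-24h (11.5 ± 0.409), Con-6h (11.5 ± 0.425), Sham-6h (11.7 ± 0.378), Emo-6h (11.8 ± 0.563), SAP-6h (12.2 ± 1.74), Sham-24h (12.7 ± 1.76) and Emo-24h (13.7 ± 1.55). Gclc moved less, from 6.91 ± 0.634 FPKM in Con-24h to 9.51 ± 1.82 in Emo-24h, with Con-6h (7.44 ± 1.45), Sham-6h (7.70 ± 2.19), SAP-24h (7.78 ± 0.625), DEX-6h (7.80 ± 1.18), DEX-24h (7.85 ± 0.625), Sham-24h (8.04 ± 1.04), Emo-6h (8.90 ± 0.989) and SAP-6h (8.92 ± 1.92) between them. Osgin1 was lowest in DEX-24h (6.61 ± 1.19 FPKM), followed by SAP-24h (8.12 ± 1.54), Sham-24h (8.84 ± 2.26), DEX-6h (9.80 ± 1.48), Emo-24h (11.4 ± 2.28), Con-24h (12.6 ± 3.96), SAP-6h (13.2 ± 2.69), Sham-6h (13.6 ± 1.70), Con-6h (15.8 ± 1.17) and Emo-6h (17.5 ± 4.63). The 3 genes thus had a different group at the bottom of each order.

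Me1 ranged from 5.11 ± 0.380 FPKM in Con-24h to 7.87 ± 0.561 in Emo-24h. The groups between were DEX-6h (5.38 ± 0.458), Emo-6h (5.74 ± 1.52), Con-6h (6.00 ± 0.370), SAP-6h (6.35 ± 1.55), Sham-6h (6.39 ± 0.894), SAP-24h (6.63 ± 0.982), DEX-24h (6.67 ± 1.25) and Sham-24h (7.52 ± 2.25). Srxn1 was lowest in Con-24h (0.527 ± 0.220 FPKM), then SAP-24h (0.607 ± 0.257), Sham-24h (0.623 ± 0.343), Emo-24h (0.703 ± 0.146), Sham-6h (0.713 ± 0.551), Con-6h (0.840 ± 0.397), DEX-6h (0.893 ± 0.230), DEX-24h (0.903 ± 0.492), SAP-6h (1.01 ± 0.133) and Emo-6h (1.21 ± 0.410). Group means of Slc7a11 lay between 0.020 FPKM in Con-24h and 0.110 FPKM in Emo-24h. The lungs of Con-24h and Emo-24h, the lowest and the highest group, did not overlap in Me1 (4.83 to 5.54 and 7.33 to 8.45 FPKM) or in Slc7a11, while in Srxn1 the SD was a large part of most differences between group means.

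The first question was whether the genes responded to pancreatitis at 24 hours. In SAP-24h vs Sham-24h, 3 of the 9 genes rose at an adjusted p under 0.05 (edgeR quasi-likelihood test, adjusted over all 15934 genes tested), where 12.4% of all genes were called in either direction. DESeq2 called 4 members at any fold, and its share of all genes at any fold was not counted. With the further requirement of a 2-fold change in edgeR, 1 gene remained, where 5.00% of all genes did. The count over all genes, 796, was 402 without replicate 1 of SAP-24h, 3 when only the 6 libraries compared were fitted and 979 in DESeq2. The median log2 fold change of the 9 genes was 0.10 and that of all genes was -0.03, with 7 of 9 above 0. Against Con-24h, 5 of 9 genes rose, where 22.1% of all genes were called, and 2 of 9 rose at least 2-fold, where 6.91% of all genes were called. That 2-fold count over all genes, 1101, was 615 to 1395 with 1 library left out and 230 with only the 6 libraries compared. The median there was 0.50, that of all genes was -0.01, and 7 of 9 were again above 0. Both comparisons share the SAP-24h lungs.

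Txnrd1 rose in both comparisons. Its level was 39.09, 28.65 and 35.81 FPKM in the SAP-24h lungs, 21.71, 17.93 and 21.99 FPKM in Sham-24h, and 17.62, 19.63 and 21.74 FPKM in Con-24h. The SAP-24h lungs did not overlap with either control group. The rise was 1.85-fold over Sham-24h (log2 0.89 ± 0.17, SE, edgeR adjusted p = 0.00249) and 1.93-fold over Con-24h (log2 0.94 ± 0.17, edgeR adjusted p = 0.000871). Leaving out any 1 of the 6 libraries kept both calls, with a log2 fold change of 0.74 to 1.03 against Sham-24h. When the model was fitted only to the 6 libraries compared, the adjusted p in edgeR was 0.0865 against Sham-24h and 0.0473 against Con-24h. The neutrophil sums of SAP-24h lay above all of Con-24h and overlapped with Sham-24h. Alveolar type 1, endothelial, and T and B cell sums of SAP-24h lay below all of Con-24h. Airway sums lay above all of Sham-24h, and T and B cell sums below. The part of these cell types in the rise of Txnrd1 was not tested.

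Hmox1 had the largest change against Sham-24h. Its level was 81.78, 27.55 and 35.33 FPKM in SAP-24h, with 24.80, 19.65 and 26.76 in Sham-24h, and 26.26, 19.51 and 25.37 FPKM in Con-24h. All 3 SAP-24h lungs were above both control groups, 1 of them by a wide margin and 1 barely. The rise was 2.27-fold against Sham-24h (log2 1.18 ± 0.31, edgeR adjusted p = 0.0170) and 2.27-fold against Con-24h (log2 1.18 ± 0.31, edgeR adjusted p = 0.00987). Without replicate 1 of SAP-24h the log2 fold change was 0.50 with an adjusted p of 0.222 in edgeR against Sham-24h, and 0.48 with 0.190 against Con-24h. Without replicate 2 of Sham-24h it was 1.08 with 0.0763, and without replicate 2 of Con-24h 1.07 with 0.0587. With only the 6 libraries compared, the adjusted p in edgeR was 0.192 against Sham-24h and 0.145 against Con-24h, and limma gave 0.0531 and 0.0516 against Sham-24h for its pseudocounts of 1 and 0.1. Over all settings tried, the adjusted p ranged from 0.00206 to 0.222 against Sham-24h and from 0.00160 to 0.190 against Con-24h. Replicate 1 of SAP-24h, which had the most Hmox1, was also the lung with the low alveolar type 1 sum (1373 FPKM), and whether this bears on Hmox1 was not tested.

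Nfe2l2 itself rose by less. Its level was 62.12, 43.64 and 46.63 FPKM in SAP-24h, with 44.53, 36.46 and 39.11 in Sham-24h, and 29.33, 33.39 and 40.02 FPKM in Con-24h. In FPKM the SAP-24h lungs overlapped with Sham-24h, which they did not in TMM-scaled log2 CPM (counts scaled to library size and composition, as in the test), and lay above all of Con-24h. The rise was 1.40-fold against Sham-24h (log2 0.49 ± 0.16, edgeR adjusted p = 0.0421) and 1.63-fold against Con-24h (log2 0.71 ± 0.16, edgeR adjusted p = 0.00316). Against Sham-24h the call was lost without replicate 1 of SAP-24h (log2 0.27, adjusted p in edgeR 0.271) and without replicate 1, 2 or 3 of Sham-24h (log2 0.57, 0.44 and 0.50, adjusted p 0.0550, 0.141 and 0.0742). Against Con-24h it was kept in all 6 of these fits. When only the 6 libraries compared were fitted, neither call was kept (adjusted p in edgeR 0.208 against Sham-24h and 0.103 against Con-24h), and limma did not call Nfe2l2 against Sham-24h. In every SAP-24h lung, summed neutrophil markers were above Con-24h, and summed alveolar type 1, endothelial, and T and B cell markers were below it. Against Sham-24h, airway markers lay above and T and B cell markers below in every lung. The part of these cell types in the rise of Nfe2l2 and Hmox1 was not tested.

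The subunits of glutamate-cysteine ligase were not called in edgeR. Gclm was 9.72, 8.44 and 8.65 FPKM in SAP-24h, with 14.76, 11.87 and 11.58 in Sham-24h and 10.06, 11.69 and 11.45 FPKM in Con-24h. In FPKM, all 3 SAP-24h lungs were below every lung of the other 24-hour groups, while on the TMM-scaled log2 CPM of the test they overlapped with Con-24h and DEX-24h. The log2 fold change was -0.37 ± 0.12 against Sham-24h (edgeR adjusted p = 0.0502) and -0.18 ± 0.13 against Con-24h (edgeR adjusted p = 0.329), so Gclm was not called in either. DESeq2 gave -0.34 ± 0.13 with an adjusted p of 0.0463 against Sham-24h, which made Gclm the further member called by that tool. Without replicate 1 of SAP-24h, edgeR also called Gclm as lower than in Sham-24h. Gclc was 8.50, 7.46 and 7.38 FPKM in SAP-24h and differed from Sham-24h by a log2 fold change of 0.09 ± 0.18 (edgeR adjusted p = 0.786).

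The ratio of Gclm to Gclc, both in FPKM, was lower in SAP-24h than in any other 24-hour lung. It was 1.15 ± 0.0209 (SD, n = 3) there, with a range of 1.13 to 1.17. The corresponding ratio was 1.59 ± 0.175 for Sham-24h, 1.61 ± 0.147 for Con-24h, 1.47 ± 0.108 for DEX-24h and 1.45 ± 0.115 for Emo-24h, and the lowest single value in these 4 groups was 1.33. At 6 hours the ratio spread from 0.909 to 2.10 over the 5 groups and SAP-6h (1.40 ± 0.300) lay among them. The ratio was examined after the values of both genes had been seen, so it is given as a description. Exact permutation tests of SAP-24h against each of the 4 other 24-hour groups gave p = 0.10 each time. With 3 rats per group this test cannot reach a lower 2-sided p, so it cannot decide the question.

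**Figure D2:**
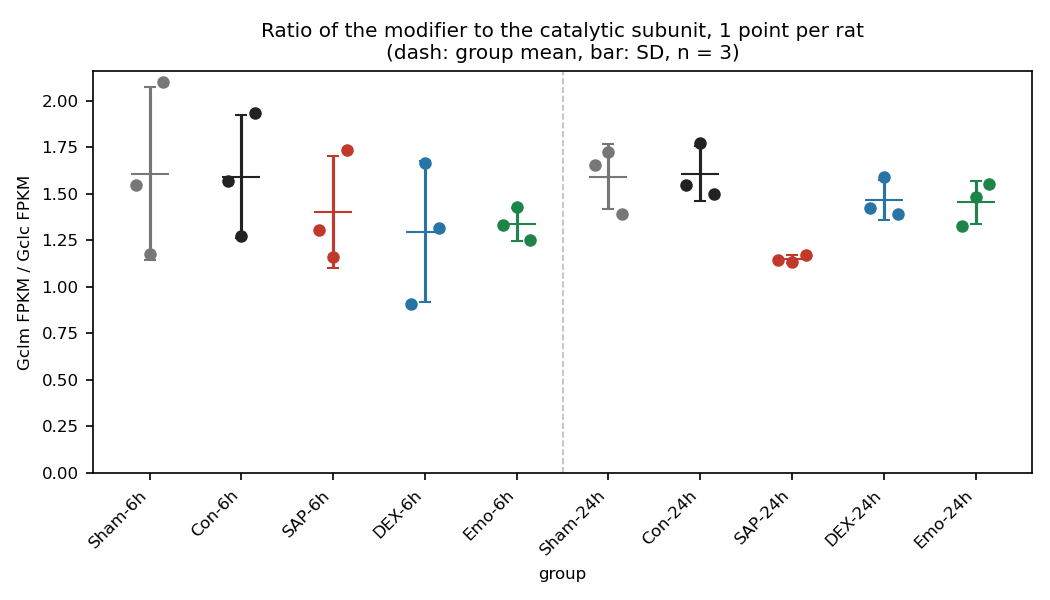
Ratio of Gclm FPKM to Gclc FPKM (vertical axis, no unit, from 0) in each of the 10 groups (horizontal axis, 6-hour groups left of the dashed line), with 1 point per rat, the mean as a dash and the SD as a bar. The SAP-24h lungs lie between 1.13 and 1.17, below every other 24-hour lung, while the 6-hour groups overlap.

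The remaining genes gave weak or no calls in pancreatitis at 24 hours. Slc7a11 had 48, 3 and 51 reads in the SAP-24h lungs and 11, 1 and 5 reads in Con-24h. The groups overlapped, because the lung with 3 reads was below the one with 11. The fitted rise was 5.25-fold (log2 2.39 ± 0.74, edgeR adjusted p = 0.0240), and it was lost without replicate 2 of Con-24h (log2 1.87, adjusted p in edgeR 0.125), replicate 3 of Con-24h (2.33, 0.0557), replicate 1 of SAP-24h (1.99, 0.101) or replicate 3 of SAP-24h (2.03, 0.0838), and with only the libraries compared (2.39, 0.217). Against Sham-24h, with 32, 18 and 36 reads, the log2 fold change was 0.37 ± 0.65 (edgeR adjusted p = 0.750). Me1 was 1.41-fold higher than in Con-24h (log2 0.50 ± 0.18, edgeR adjusted p = 0.0499) and -0.05 ± 0.18 on the log2 scale against Sham-24h; the call against Con-24h was lost when any 1 of the 6 libraries was left out, with log2 values of 0.42 to 0.57. It was also lost with a replicate block (adjusted p in edgeR 0.0608), no filter (0.0626) and only the libraries compared (0.107), and in limma (0.188 and 0.180 for pseudocounts of 1 and 0.1). Osgin1 and Srxn1 had log2 fold changes of 0.01 ± 0.22 and 0.10 ± 0.55 against Sham-24h. Against Con-24h they were -0.51 ± 0.22 (edgeR adjusted p = 0.101) and 0.35 ± 0.56 (edgeR adjusted p = 0.701).

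The saline infusion itself was compared with the sham operation. In Con-24h vs Sham-24h, 0 of the 9 genes were called, where 9.85% of all genes were, although 3 had an unadjusted p under 0.05 and DESeq2 called Me1 and Slc7a11 at an adjusted p under 0.05 (0.0327 and 0.0395). The 3 were Me1 (log2 -0.55 ± 0.18, edgeR adjusted p = 0.0531), Slc7a11 (log2 -2.02 ± 0.74, edgeR adjusted p = 0.0814) and Osgin1 (log2 0.52 ± 0.22, edgeR adjusted p = 0.132). For Me1 and Slc7a11 these are the genes called against Con-24h and not against Sham-24h, and the values of Con-24h enter both comparisons. Shares of all genes at an unadjusted p and in DESeq2, both at any fold, were not counted.

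The second question was whether the drugs changed these genes in pancreatitis. At 24 hours, 1 of 9 genes fell in DEX-24h vs SAP-24h, where 7.71% of all genes were called, and in Emo-24h vs SAP-24h 1 fell and 1 rose, where 8.59% were called. At any fold, DESeq2 called 2 members in each of these comparisons, with Hmox1 as the second for DEX (log2 -0.996 ± 0.312, DESeq2 adjusted p = 0.0197). The share of all genes that DESeq2 called at any fold was not counted. At the other threshold, 2-fold, DESeq2 called 787 (DEX) and 699 (emodin) of all genes here, against 594 and 508 in edgeR. Txnrd1 fell with both drugs. It was 21.39, 19.86 and 26.53 FPKM in DEX-24h and 24.99, 24.04 and 20.85 FPKM in Emo-24h, all below the 3 SAP-24h lungs and close to Sham-24h. The log2 fold change was -0.71 ± 0.17 with DEX (edgeR adjusted p = 0.0113) and -0.73 ± 0.17 with emodin (edgeR adjusted p = 0.0118). Between the drugs it was -0.02 ± 0.17 (edgeR adjusted p = 0.967).

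The fall of Txnrd1 with DEX was lost without replicate 1 of DEX-24h (log2 -0.65, adjusted p in edgeR 0.0539), replicate 2 of DEX-24h (-0.64, 0.0638) or replicate 1 of SAP-24h (-0.55, 0.0651), and the fall with emodin without replicate 1 of SAP-24h (-0.59, 0.0531). When only the 6 libraries compared were fitted, the adjusted p was 0.119 with DEX and 0.113 with emodin. Neutrophil sums overlapped between the groups, since replicate 2 of SAP-24h (4672 FPKM) was below all 3 Emo-24h lungs and 1 DEX-24h lung (4818 FPKM). Other sums separated the groups: DEX-24h was below SAP-24h in airway markers (25807 to 36783 against 37670 to 47774 FPKM) and in T and B cell markers, and above it in endothelial markers (982 to 1126 against 909 to 960 FPKM), and Emo-24h was above SAP-24h in T and B cell markers (32.8 to 77.0 against 20.3 to 31.6 FPKM). The part of these cell types in the fall was not tested.

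Gclm rose with emodin. Its level was 15.09, 13.91 and 12.02 FPKM in Emo-24h, above all 3 SAP-24h lungs, a 1.37-fold change (log2 0.45 ± 0.12, edgeR adjusted p = 0.0297). T and B cell markers also separated these groups (32.8 to 77.0 against 20.3 to 31.6 FPKM), and their part in the rise was not tested. The call was lost without replicate 1 or 2 of Emo-24h (log2 0.40 and 0.42, adjusted p in edgeR 0.110 and 0.104) and without replicate 2 or 3 of SAP-24h (0.37 and 0.40, 0.0947 and 0.0874), and its adjusted p was 0.161 with only the 6 libraries compared and 0.0571 with no filter on low counts. With DEX, Gclm was 11.03, 11.58 and 11.83 FPKM and the log2 fold change was 0.27 ± 0.12 (edgeR adjusted p = 0.200). All 3 Emo-24h lungs were above the DEX-24h lungs in Gclm, but the difference did not pass the test (log2 0.18 ± 0.12 for Emo-24h vs DEX-24h, edgeR adjusted p = 0.448).

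Hmox1 and Nfe2l2 had negative log2 fold changes with both drugs without passing the test in edgeR. Hmox1 was 20.93, 31.21 and 27.63 FPKM in DEX-24h and 29.70, 31.22 and 34.00 FPKM in Emo-24h, which overlapped with the 2 lower SAP-24h lungs. The log2 fold change was -0.98 ± 0.31 with DEX (edgeR adjusted p = 0.0542) and -0.79 ± 0.31 with emodin (edgeR adjusted p = 0.105). Leaving out replicate 2 or replicate 3 of SAP-24h brought Hmox1 past the threshold with DEX, as did leaving out replicate 2 with emodin, and these are the 2 SAP-24h lungs with the lower values. Nfe2l2 was 42.87, 40.14 and 42.28 FPKM in DEX-24h and 51.28, 46.41 and 40.47 FPKM in Emo-24h, with log2 fold changes of -0.38 ± 0.16 (edgeR adjusted p = 0.135) and -0.31 ± 0.16 (edgeR adjusted p = 0.202). Against the sham operation, 0 of 9 genes were called in DEX-24h, where 6.97% of all genes were, and 0 of 9 in Emo-24h, where 0% of all genes were. Neither comparison had a member with an unadjusted p under 0.05, and DESeq2 called 0 in both.

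**Figure D3:**
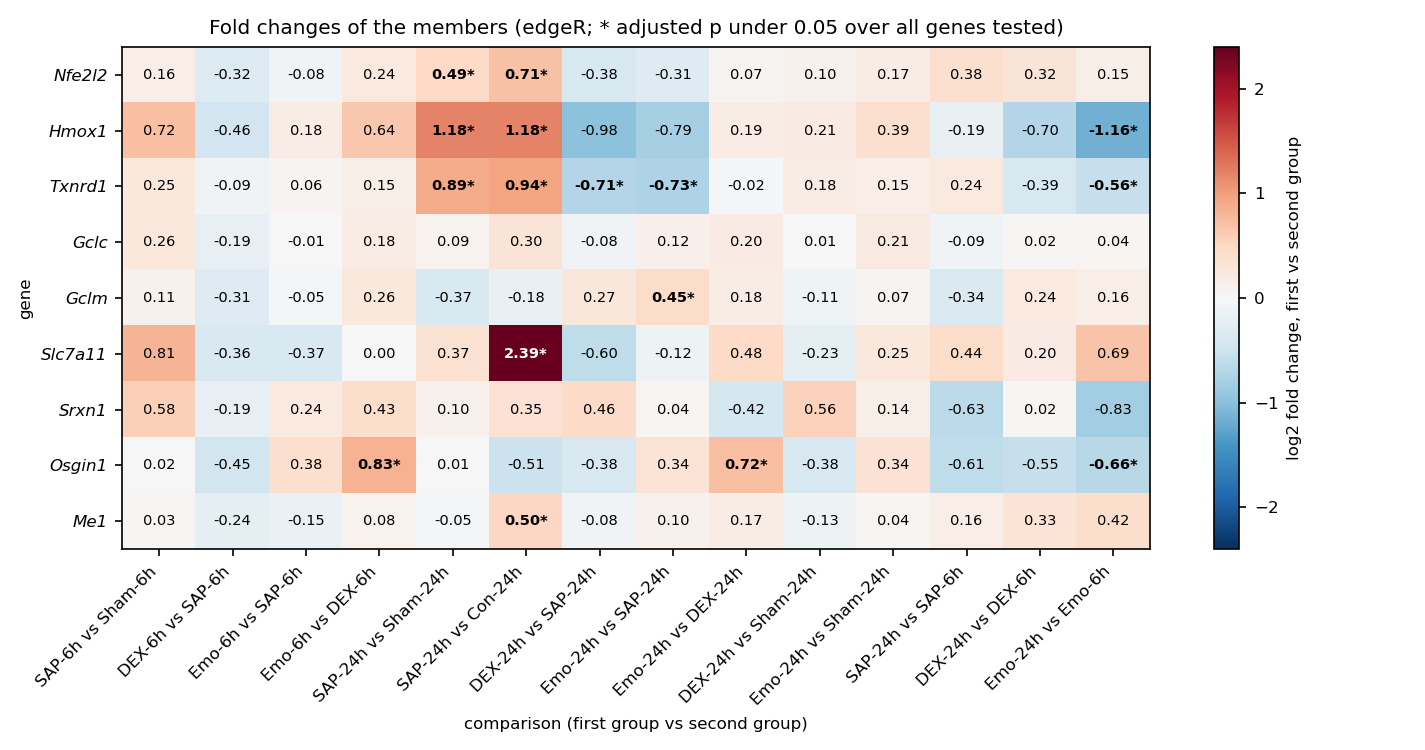
Log2 fold change (colour and printed value) of the 9 genes (rows) in 14 comparisons (columns, first group vs second group), from edgeR, with an asterisk and bold type where the adjusted p over all genes tested was under 0.05. Calls gather in the SAP-24h columns and in Emo-24h vs Emo-6h, and Txnrd1 is the gene called in both drug comparisons with SAP-24h (-0.71 and -0.73). Many of all genes were called there too: 12.4% in SAP-24h vs Sham-24h, 22.1% in SAP-24h vs Con-24h and 34.1% in Emo-24h vs Emo-6h. With DEX and emodin against SAP-24h, 7.71% and 8.59% were.

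Osgin1 was the member called between the drugs. It was 20.27, 20.06 and 12.14 FPKM in Emo-6h and 9.95, 8.25 and 11.20 FPKM in DEX-6h, and 12.98, 12.50 and 8.82 FPKM in Emo-24h and 5.51, 6.45 and 7.87 FPKM in DEX-24h. The emodin lungs were above the DEX lungs at each time with no overlap. Osgin1 was 1.78-fold higher in Emo-6h vs DEX-6h (log2 0.83 ± 0.22, edgeR adjusted p = 0.0428), the only member called there, where 2.88% of all genes were called. It was 1.65-fold higher in Emo-24h vs DEX-24h (log2 0.72 ± 0.22, edgeR adjusted p = 0.0453), again the only member called, where 8.89% of all genes were called. At 24 hours, summed T and B cell markers separated the same groups, at 32.8 to 77.0 FPKM in Emo-24h against 7.06 to 13.4 FPKM in DEX-24h. At 6 hours they overlapped (48.9 to 94.4 FPKM in Emo-6h and 43.4 to 58.2 FPKM in DEX-6h). Their part in the Osgin1 difference was not tested. Both calls held in 1 of 6 fits with a library left out: without replicate 3 of Emo-6h and without replicate 3 of Emo-24h. In the other 5 the log2 values were 0.84, 0.72, 0.90, 0.70 and 0.74 at 6 hours (without DEX-6h replicates 1 to 3 and Emo-6h replicates 1 and 2; adjusted p in edgeR 0.149, 0.153, 0.0881, 0.156 and 0.104) and 0.56, 0.72, 0.83, 0.64 and 0.64 at 24 hours (in the same order of groups; 0.203, 0.116, 0.0690, 0.165 and 0.171). Of 7 other settings, the 6-hour call was lost in 5 and the 24-hour call in 2. With a replicate block the adjusted p in edgeR was 0.0579 and 0.0565, and with no filter it was 0.0515 and 0.0659. At 6 hours it was 0.141 with only the libraries compared, and limma gave 0.0645 and 0.0683 for the pseudocounts of 1 and 0.1.

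Against untreated pancreatitis neither drug passed the test in Osgin1. The log2 fold change was -0.45 ± 0.22 in DEX-6h vs SAP-6h (edgeR adjusted p = 0.435) and 0.38 ± 0.22 in Emo-6h vs SAP-6h (edgeR adjusted p = 0.450). At 24 hours it was -0.38 ± 0.22 with DEX (edgeR adjusted p = 0.316) and 0.34 ± 0.22 with emodin (edgeR adjusted p = 0.341). The summed level of 5 direct glucocorticoid targets was 642 to 921 FPKM in DEX-6h and 652 to 778 FPKM in DEX-24h. It was 350 to 641 FPKM in SAP-6h and 363 to 424 FPKM in SAP-24h, and 411 to 491 FPKM in Emo-6h and 170 to 345 FPKM in Emo-24h. The DEX lungs were above the others at 24 hours, while at 6 hours the highest SAP lung was level with the lowest DEX lung (641 and 642 FPKM).

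At 6 hours the genes gave no call by edgeR against the controls or against untreated pancreatitis. With edgeR, 0 of 9 were called in SAP-6h vs Sham-6h (0.270% of all genes called), SAP-6h vs Con-6h (0.207%), Con-6h vs Sham-6h (0%), DEX-6h vs SAP-6h (0.979%), Emo-6h vs SAP-6h (0.0314%), DEX-6h vs Sham-6h (9.75%) and Emo-6h vs Sham-6h (3.26%). The members with an unadjusted p under 0.05 numbered 1, 2, 0, 1, 0, 0 and 1 in the same order, and DESeq2 called Hmox1 in Emo-6h vs Sham-6h (adjusted p = 0.0433) and 0 in the others. For these 2 rules at any fold, the shares of all genes were not counted. Over these comparisons, the lowest adjusted p in edgeR was that of Hmox1 in Emo-6h vs Sham-6h, while in SAP-6h vs Con-6h Txnrd1 was nearer to a call. Hmox1 was 42.28, 77.72 and 61.60 FPKM in SAP-6h and 83.08, 53.42 and 69.39 FPKM in Emo-6h. It was 27.83, 45.24 and 40.57 FPKM in Sham-6h and 40.41, 39.74 and 34.35 FPKM in Con-6h. The 3 Emo-6h lungs were above both control groups, and the SAP-6h lungs were above Con-6h and overlapped with Sham-6h in FPKM, though not in TMM-scaled log2 CPM. The summed level of 4 matched red blood cell markers was 1852 to 2387 FPKM in SAP-6h, above every Sham-6h (195 to 924 FPKM) and Con-6h lung (390 to 1369 FPKM). In Emo-6h it was 736 to 1469 FPKM and overlapped with both control groups. Summed endothelial markers were 1203 to 1615 FPKM in SAP-6h and 1152 to 1725 FPKM in Emo-6h. Both lay above every Sham-6h lung (1139 to 1150 FPKM) and overlapped with Con-6h (1051 to 1382 FPKM). The part of these cell types in the Hmox1 levels was not tested. The log2 fold change was 0.90 ± 0.31 in Emo-6h vs Sham-6h (edgeR adjusted p = 0.0903), 0.72 ± 0.31 in SAP-6h vs Sham-6h (edgeR adjusted p = 0.307) and 0.73 ± 0.31 in SAP-6h vs Con-6h (edgeR adjusted p = 0.402). In DEX-6h, Hmox1 was 34.26, 54.40 and 42.64 FPKM.

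Txnrd1 was also above Con-6h in all 3 SAP-6h lungs. It was 31.77, 28.87 and 34.09 FPKM in SAP-6h and 21.80, 26.46 and 20.49 FPKM in Con-6h, a log2 fold change of 0.54 ± 0.17 (edgeR adjusted p = 0.206). The Sham-6h lungs spread from 18.23 to 34.89 FPKM and overlapped with SAP-6h. The neutrophil sums of the Sham-6h lungs were 2810, 5781 and 825 FPKM, in the same order as their Txnrd1 levels of 29.43, 34.89 and 18.23 FPKM. Those of the SAP-6h lungs, 3581, 4759 and 2480 FPKM, had the reverse order of their Txnrd1 levels. Whether the neutrophils contribute to these Txnrd1 levels was not tested.

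The third question was how the genes differed between the times. In Emo-24h vs Emo-6h 3 of the 9 genes fell and 1 fell at least 2-fold. These shares were near those of all genes called, 34.1% and 9.41%, and so are not particular to the members. Hmox1 fell by 1.16 on the log2 scale (SE 0.31, edgeR adjusted p = 0.00638), with all 3 Emo-24h lungs (29.70 to 34.00 FPKM) below the Emo-6h lungs (53.42 to 83.08 FPKM), and the call was kept in all 6 fits with a library left out and in 7 other settings. Summed red blood cell markers were 83.4 to 441 FPKM in Emo-24h against 736 to 1469 FPKM in Emo-6h, and summed endothelial markers were 826 to 1008 against 1152 to 1725 FPKM. Summed neutrophil markers were higher at 24 hours, at 4750 to 6930 against 1701 to 4211 FPKM, and the part of these cells in these falls was not tested. Txnrd1 fell by 0.56 (SE 0.17, edgeR adjusted p = 0.0125), a call lost only without replicate 1 of Emo-6h (log2 -0.51, adjusted p 0.0510). Osgin1 fell by 0.66 (SE 0.22, edgeR adjusted p = 0.0244), with 1 Emo-6h lung within the range of Emo-24h in FPKM but not in TMM-scaled log2 CPM, and this call was lost without replicate 3 of Emo-24h (-0.55, 0.105), replicate 1 of Emo-6h (-0.53, 0.117) or replicate 2 of Emo-6h (-0.59, 0.0701), with only the libraries compared (-0.68, 0.0549) and in limma with a pseudocount of 0.1 (-0.59, 0.0528).

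The other groups had no member called by edgeR between 6 and 24 hours. In edgeR 0 of 9 were called in Sham-24h vs Sham-6h (0.992% of all genes), Con-24h vs Con-6h (0.0126%), SAP-24h vs SAP-6h (6.01%) and DEX-24h vs DEX-6h (25.9%). Members with an unadjusted p under 0.05 numbered 3, 1, 3 and 3, and DESeq2 called Osgin1 in the DEX lungs (log2 -0.57 ± 0.23, DESeq2 adjusted p = 0.0471) and 0 in the others. Hmox1 had a negative log2 fold change over time in all 5 kinds of lung: -0.65 in Sham, -0.64 in Con, -0.19 in SAP, -0.70 in DEX and -1.16 in Emo. Osgin1 was negative in all 5 as well, from -0.27 in Con to -0.66 in Emo. Txnrd1 was negative in 4 and 0.24 ± 0.17 in SAP (edgeR adjusted p = 0.393).

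Whether an effect differed between the times was tested with interaction terms, and 0 of 9 genes passed in any of the 4 in edgeR. This was the case for SAP vs Sham (0.0314% of all genes called), DEX vs SAP (0.169%), Emo vs SAP (3.57%) and Emo vs DEX (0.0628%). Members with an unadjusted p under 0.05 numbered 2, 2, 3 and 0, and DESeq2, run on the interactions after the data had been seen, called 0, 0, 1 and 0. The shares of all genes under these 2 rules were not counted, so the shares above are no reference for them. Txnrd1 came nearest: the difference between the emodin effects at 24 and 6 hours was -0.79 ± 0.24 on the log2 scale (edgeR adjusted p = 0.0555), and this was the term that DESeq2 called (-0.83 ± 0.25, DESeq2 adjusted p = 0.0170). For Gclm it was 0.50 ± 0.18 (edgeR adjusted p = 0.0930). Apart from Txnrd1 with emodin, where the call depends on the tool, no effect on a member was shown to differ between the times.

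Pairs of members differed in how closely they varied together over the 30 lungs. Of 36 pairs of members, 5 had a Pearson r above 0.5 on log2 CPM (counts scaled to library size), 8 were below 0, and the median was 0.286. The closest pair was Hmox1 with Txnrd1 (r = 0.723, Spearman rho 0.721), followed by Nfe2l2 with Gclc (0.716, rho 0.697). Nfe2l2 with Txnrd1 had r = 0.585, Gclc with Srxn1 0.565 and Gclc with Txnrd1 0.554. The subunits Gclc and Gclm had r = 0.246. Nfe2l2 with Osgin1 was the lowest pair at -0.243. These values describe 30 lungs that share treatments, depth and cell content. Srxn1 (6 to 40 reads) and Slc7a11 (1 to 51 reads) carry a large counting error, which limits their correlations. The same summary was not made for pairs of all genes, so it does not show whether the members vary together more or less than others.

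**Figure D4:**
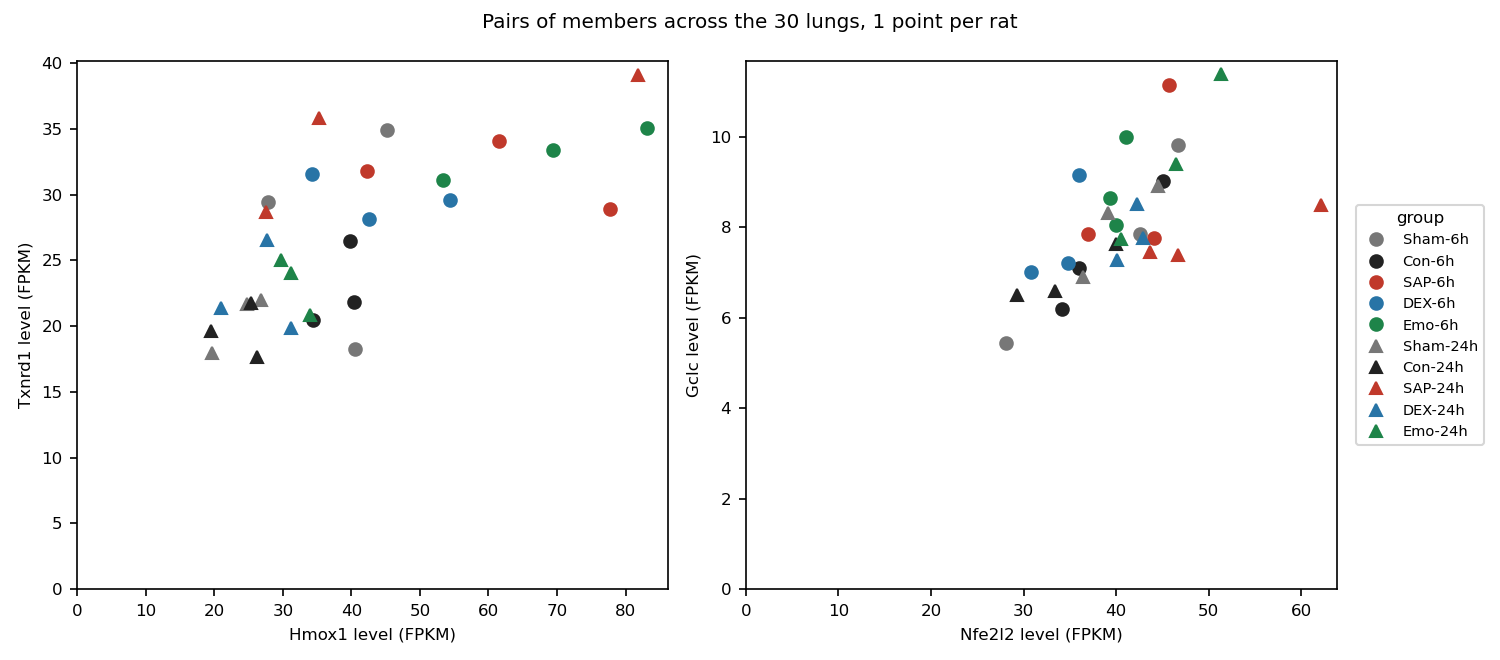
Levels in FPKM of Hmox1 (horizontal) and Txnrd1 (vertical) on the left and of Nfe2l2 (horizontal) and Gclc (vertical) on the right, with linear axes from 0, 1 point per rat, circles for 6 hours and triangles for 24 hours, coloured by treatment. Hmox1 and Txnrd1 vary together over the 30 lungs (r = 0.723 on log2 CPM), with replicate 1 of SAP-24h at the top right.

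The genes most correlated with each member are given as a description. They hold the highest values of a search over many genes, so a high r alone is no evidence of a link. Antioxidant genes were a small share of those searched, so the kind of partner found cannot decide anything about the members. Txnrd1 was closest to Stat3 (r = 0.900), a transcription factor of cytokine signalling, and Bcl3 (0.882), a partner of NF-kB, over the 30 libraries. Hmox1 was closest to Tnfrsf1a (0.884), a receptor for TNF, and Mmp24 (0.835). Nfe2l2 was closest to Sde2 (0.889) and Zfp36l1 (0.885), which promotes mRNA decay. Osgin1 was closest to Nfic (0.857) and Esyt1 (0.853), and Me1 to Tmprss11g (0.784) and Fam149a (0.776). Slc7a11 was closest to Zfp326 (0.764) and AABR07021221.1 (0.741). The weakest partners were those of Gclc (Exo5, 0.723, and Nfe2l2 itself, 0.716), Srxn1 (Socs7, 0.694, and Gprc5d, 0.689) and Gclm (ENSRNOG00000003670, 0.693, and Trim59, 0.685). By rank correlation, Tnfrsf1a, Bcl3 and Nfic were first for Hmox1, Txnrd1 and Osgin1, while Zfp36l1 dropped to rank 45 for Nfe2l2 and Socs7 to rank 59 for Srxn1.

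A wider list of 71 genes of the pathway gave context, of which 64 were tested. In SAP-24h vs Sham-24h, 14 rose and 0 fell (21.9% called, against 12.4% of all genes), 4 of them at least 2-fold. Maff, a small MAF protein that pairs with NRF2, had a log2 fold change of 1.97 ± 0.38 (edgeR adjusted p = 0.00275). Sod2, the mitochondrial superoxide dismutase, had 1.79 ± 0.44 (edgeR adjusted p = 0.0117), and Ugdh, which makes the sugar donor for glucuronidation, had 1.04 ± 0.26 (edgeR adjusted p = 0.0134). The fourth was Prdx5, a peroxiredoxin, at 1.03 ± 0.19 (edgeR adjusted p = 0.00203), named after its value was seen. By role, 5 of 11 regulators, 3 of 6 NADPH genes, 2 of 9 glutathione genes, 3 of 16 thioredoxin and peroxide genes, 1 of 14 conjugation and quinone genes, 0 of 6 iron and heme genes and 0 of 2 transport genes rose.

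The repressors and the textbook target of the pathway were not called in this comparison. Keap1, the NRF2 inhibitor, had a log2 fold change of 0.12 ± 0.12 in SAP-24h vs Sham-24h (edgeR adjusted p = 0.567), and Bach1, the competitor, 0.40 ± 0.27 (edgeR adjusted p = 0.336). Nqo1, a quinone reductase and a common readout of NRF2, had 0.13 ± 0.18 (edgeR adjusted p = 0.688). Its level was 39.2 ± 11.2 FPKM in the SAP-24h lungs and 39.1 ± 10.3 in the Sham-24h lungs (SD, n = 3). In Con-24h vs Sham-24h, by contrast, Keap1 (0.40 ± 0.12, edgeR adjusted p = 0.0402) and Nqo1 (0.60 ± 0.18, edgeR adjusted p = 0.0394) both rose, among 7 of 64 genes that rose and 0 that fell (10.9%, against 9.85% of all genes). Bach1 rose in SAP-24h vs Con-24h (0.84 ± 0.27, edgeR adjusted p = 0.0292).

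In SAP-24h vs Con-24h, 11 of the 64 genes rose and 5 fell, and 25% was near the 22.1% of all genes called. The largest changes were in Sod2 (log2 2.11 ± 0.44, edgeR adjusted p = 0.00236), Nqo2 (-2.04 ± 0.71, edgeR adjusted p = 0.0411) and Maff (1.41 ± 0.37, edgeR adjusted p = 0.00981). Nqo2 is a quinone reductase that uses other cofactors than Nqo1. The levels of Nqo2 were 1.41 ± 0.741 FPKM in SAP-24h and 6.45 ± 1.66 in Con-24h.

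The calls of the wider list between the drugs and untreated pancreatitis at 24 hours were all downward, while most of its genes were not called. In DEX-24h vs SAP-24h, 0 genes rose and 9 of 64 fell (14.1%, against 7.71% of all genes), with Sod2 at -1.66 ± 0.44 (edgeR adjusted p = 0.0220). In Emo-24h vs SAP-24h, 0 rose and 8 fell (12.5%, against 8.59% of all genes), with Maff at -1.37 ± 0.37 (edgeR adjusted p = 0.0268). Maff separated the drugs at 24 hours (-1.60 ± 0.37 in Emo-24h vs DEX-24h, edgeR adjusted p = 0.00874). Sod3, the extracellular superoxide dismutase, was higher with emodin (1.29 ± 0.18, edgeR adjusted p = 0.000189) and Ggt1, which cleaves extracellular glutathione, was lower (-1.09 ± 0.22, edgeR adjusted p = 0.00313), among 3 that rose and 5 that fell (12.5%, against 8.89% of all genes).

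In DEX-24h vs Sham-24h, 5 of the 64 genes rose and 1 fell (9.38%, against 6.97% of all genes). Maff (log2 2.20 ± 0.38, edgeR adjusted p = 0.00110) and Ggt1 (1.13 ± 0.22, edgeR adjusted p = 0.00265) rose and Sod3 fell (-1.08 ± 0.18, edgeR adjusted p = 0.000940). Sod3 also fell between 6 and 24 hours of DEX (-1.05 ± 0.18, edgeR adjusted p = 0.000444), where 5 of the 64 genes rose and 12 fell, and 26.6% was near the 25.9% of all genes called. At 6 hours, DEX-6h vs Sham-6h had 11 that rose and 3 that fell (21.9%, against 9.75% of all genes), led by Nfe2l3 (2.44 ± 0.65, edgeR adjusted p = 0.0202), a relative of NRF2 at 0.547 ± 0.291 FPKM, Akr1b8 (1.73 ± 0.45, edgeR adjusted p = 0.0173), an aldo-keto reductase, and Maff (1.44 ± 0.37, edgeR adjusted p = 0.0175). In Emo-6h vs DEX-6h, 3 of the 64 genes rose and 2 fell (7.81%, against 2.88% of all genes). The 2 that fell were at least 2-fold lower with emodin: Txnip, the inhibitor of thioredoxin (-1.01 ± 0.18, edgeR adjusted p = 0.00512), and Mgst2, a microsomal glutathione transferase (-1.05 ± 0.19, edgeR adjusted p = 0.00544). SAP-6h vs Sham-6h, SAP-6h vs Con-6h and Emo-6h vs SAP-6h had 0 of the 64 genes called in edgeR.

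In emodin-treated lungs, 20 of the 64 genes fell and 4 rose from 6 to 24 hours, and this share of 37.5% was near the 34.1% of all genes called. Sesn2, a stress-induced regulator of peroxide metabolism, fell by 1.18 on the log2 scale (SE 0.13, edgeR adjusted p = 9.39e-06), and Chac1, which degrades glutathione, fell by 1.62 (SE 0.54, edgeR adjusted p = 0.0234). Aox1, an aldehyde oxidase, rose by 2.07 (SE 0.49, edgeR adjusted p = 0.00252). Keap1 (-0.51 ± 0.12, edgeR adjusted p = 0.00284) and Nqo1 (-0.60 ± 0.18, edgeR adjusted p = 0.0144) fell as well, beside the fall of Hmox1, Txnrd1 and Osgin1.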

How the data were processed

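The authors removed adaptors and low-quality bases, used TopHat2 to map paired reads from directional libraries to an Ensembl genome of the rat, named rat_ensembl_v6, and kept uniquely mapped reads. The counting program was not given in the sources used here. They deposited counts per gene, whole numbers without normalization, for 22914 genes, and FPKM values, rounded to 2 decimals, for 22907 genes.

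Differential expression was computed from the counts in R 4.3.3 with edgeR 4.0.16: filterByExpr (minimum count 10, minimum total 15) left 15934 genes, libraries were scaled by TMM, and a quasi-likelihood model of 10 groups was fitted to 30 libraries (20 residual degrees of freedom). P-values were adjusted by Benjamini-Hochberg over all genes tested in each of 21 comparisons and 4 interactions with time. The call rule was an adjusted p under 0.05, with or without a 2-fold change. The study used edgeR with a 2-fold change. The steps were tested on simulated data. Levels are FPKM, which are not corrected for composition as TMM is, so ratios of FPKM differ somewhat from fitted fold changes. Figures were drawn in Python 3.11.15 with matplotlib 3.10.9.

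The members and all lists were chosen with earlier results of these data known. The text names all members, the 2 genes most correlated with each, Keap1, Bach1, Maff and Nqo1, and per comparison up to 3 other listed pathway genes called at 2-fold. Of 71 pathway genes, Pgd, Gstm2, Ugt1a6, Abcc1 and Slc40a1 had no row by symbol, Cbr1 had 2 rows, and 1 did not pass the filter. Of the marker genes, Hba-a1, Hba-a2 and Tsc22d3 had no row.

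Replicates were separate rats, and libraries of a group differed by 37.5 to 209 times the counting variance, so none was a repeat of another. Precision is limited by 3 rats per group and, for Srxn1 and Slc7a11, by depth. Alternatives were RLE scaling, no filter, DESeq2 1.42.0, limma 3.58.1 on log2(FPKM + 1) or log2(FPKM + 0.1) for genes of at least 1 FPKM, only the libraries compared, a replicate block, an unadjusted p, any fold, and each library left out. DESeq2 and no filter were added for the interactions after the data had been seen. Newly assembled long noncoding RNAs were not analysed here.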

Additional observations from a re-analysis of the deposited data

How the results depend on the processing

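None of the 16 fold changes of called members reversed in the fits run. Of 110 such values recomputed under other settings, 82 kept their call and 28 were past the threshold no longer, and of 96 recomputed with 1 library left out 56 kept it. At an adjusted p under 0.05 with no fold limit, the members called became 3 in SAP-24h vs Sham-24h, 5 in SAP-24h vs Con-24h, 1 in DEX-24h vs SAP-24h, 2 in Emo-24h vs SAP-24h, 1 in Emo-24h vs DEX-24h, 1 in Emo-6h vs DEX-6h and 3 in Emo-24h vs Emo-6h. At 2-fold, limma called 0 of 8 members in SAP-24h vs Sham-24h, and 345 and 625 of all genes with pseudocounts of 1 and 0.1. In SAP-24h vs Con-24h it called 0 members, and 526 and 865 of all genes. The fit of only the libraries compared called 0 members in each, and 3 and 230 of all genes. Slc7a11, which has under 1 FPKM, was not in the limma tests. At 2-fold with an unadjusted p, 1 member was called in Con-24h vs Sham-24h, where 465 of 15934 genes were. In Con-24h vs Con-6h, 1 was called at this setting, given without the count over all genes and so not read as a result about the members. DESeq2 called 1 at 2-fold in Con-24h vs Sham-24h, where it called 202 of all genes and edgeR called 160. The cause of these calls was not tested. In Emo-6h vs Sham-6h, DESeq2 called 185 of all genes at 2-fold and edgeR called 76. With 1 library left out, the members called at 2-fold ranged from 0 to 2 in SAP-24h vs Sham-24h, from 0 to 3 in SAP-24h vs Con-24h, and from 0 to 1 in each of Emo-6h vs DEX-6h, Emo-24h vs SAP-24h, Emo-24h vs Emo-6h, and DEX-24h vs SAP-24h. Over all genes, these fits called 402 to 840 in SAP-24h vs Sham-24h and 45 to 277 in Emo-6h vs DEX-6h. The range for SAP-24h vs Con-24h is given above, and those of the other comparisons are not given here. The replicate numbers share only a number: every same-numbered pair correlated above 0.1 in 1 of 21 comparisons (lowest value -0.363, median 0.0366, highest 0.359). With a replicate block, the members called at any fold were 3 in SAP-24h vs Sham-24h, 4 in SAP-24h vs Con-24h, 1 in DEX-24h vs SAP-24h, 2 in Emo-24h vs SAP-24h, 0 in Emo-24h vs DEX-24h, 0 in Emo-6h vs DEX-6h and 3 in Emo-24h vs Emo-6h, and the counts of members at 2-fold did not change. At 2-fold the block called 762 of all genes in SAP-24h vs Sham-24h and 1074 in SAP-24h vs Con-24h. Its counts over all genes at any fold were not made. RLE scaling moved the median of all genes by at most 0.03 on the log2 scale, and turned the sign of 1 member, not called, in the interaction of SAP vs Sham with time. Depth limits Srxn1 (6 to 40 reads) and Slc7a11 (1 to 51 reads).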
